A study of Mus musculus with 6 samples.

Results

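Glucose entry and glycolysis were followed through 10 genes in mouse leukaemia cells given dihydroartemisinin (DHA), the compound to which artemisinin antimalarials are converted in the body. The genes encode the glucose transporters Slc2a1 and Slc2a3, the hexokinases Hk1 and Hk2, the phosphofructokinases Pfkl and Pfkp, the later enzymes Tpi1, Pgk1 and Pkm, and the lactate dehydrogenase subunit Ldha. A probe set stood for a member where the platform annotation paired it with that symbol alone, and the brightest by the mean of the 6 arrays was used. This gave 11 probe sets for the 10 members, out of 22180 genes with such a probe set, and all 10 members were bright enough to be among the 15526 genes tested. The cells were B-ALL cells positive for BCR-ABL, that is, acute lymphoblastic leukaemia of the B lineage, a cancer of B-cell precursors driven by a fusion kinase. One group of 3 samples received 312 nM DHA and the other group of 3 received the vehicle dimethyl sulphoxide (DMSO), in both cases for 4 h. The growth protocol covers cells with the p185 form of BCR-ABL, with or without the T315I mutation, that lacked Arf or p53, without naming the one used for the arrays. Separate cultures are not mentioned in the labels either, so every p-value rests on a spread between samples that could be technical.

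Glycolysis splits glucose into pyruvate in the cytosol and yields ATP without oxygen. Glucose enters through facilitative transporters, is trapped by hexokinase, and is committed to the pathway by phosphofructokinase, the main controlled step. Triosephosphate isomerase (Tpi1), phosphoglycerate kinase (Pgk1) and pyruvate kinase (Pkm) act further down, and lactate dehydrogenase turns pyruvate into lactate, which restores the cofactor that glycolysis consumes. Proliferating leukaemia cells typically use glycolysis heavily, and MYC and the hypoxia factor HIF1 are known activators of many of these genes.

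Array medians lay between 5.25 and 5.31 on the log2 scale, and correlations between arrays between 0.993 and 0.995. Ddit3, which encodes the stress factor CHOP, was at 7.62, 7.46 and 7.36 with DMSO and at 10.13, 9.56 and 10.19 with DHA. Its log2 fold change of 2.48 was the highest of all tested genes, so it describes the response of each array and is no independent check. Markers of B-cell precursors were bright, with the 12 measured of 14 at a median percentile of 97.7 among all genes, although Vpreb1, a surrogate light chain gene, was dim at 4.78 in DMSO. The mean of these 12 lay at 10.23 to 10.29 in the DMSO arrays and at 10.16 to 10.21 in the DHA arrays, which do not overlap. Single markers ran both ways, from -0.53 for Rag2 to 0.13 for Ebf1 in log2 fold change, with a median of -0.0069. Of the 12, 7 were lower (48.8% of all tested genes). T and NK cell markers (11 of 12 measured) averaged 4.64 to 4.72 with DMSO and 4.65 to 4.72 with DHA, and myeloid markers (12 of 12) 4.87 to 4.93 and 4.88 to 4.93. Erythroid and megakaryocyte markers (5 of 9) averaged 5.03 to 5.07 and 5.08 to 5.13, and stromal and endothelial markers (8 of 8) 5.484 to 5.518 and 5.518 to 5.588, with the DHA arrays the higher in both lists. The part of these small shifts in the results was not tested, and none of the tested markers passed the test over all genes.

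Most of the glycolytic genes lay lower with DHA, by amounts that did not pass the test over all genes. The log2 fold change was below 0 in 9 of 10 members, against 48.8% of all tested genes, and the median was -0.24 against 0.0027 for all tested genes. The lowest values belonged to Pfkl (-0.62), Ldha (-0.50) and Tpi1 (-0.43), and Slc2a3 was the member with a positive value (0.072). With limma and Benjamini-Hochberg adjustment over all 15526 genes, 0 of 10 members were called, where 0.0902% of all genes were called, and the lowest adjusted p was 0.126. At an unadjusted p under 0.05, 5 members were lower (6.08% of all genes) and 0 were higher (5.94%). In 0 members did all 3 DHA arrays lie above all 3 DMSO arrays (7.64% of all genes). All 3 DHA arrays lay below all 3 DMSO arrays in 5 members, Hk1, Pfkl, Tpi1, Pkm and Ldha, against 8.19% of all genes. The members were picked with earlier results of these data known, so these counts describe them and are no independent support. In bulk RNA, fewer cells of a kind and less of an RNA per cell cannot be told apart.

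**Figure D1:**
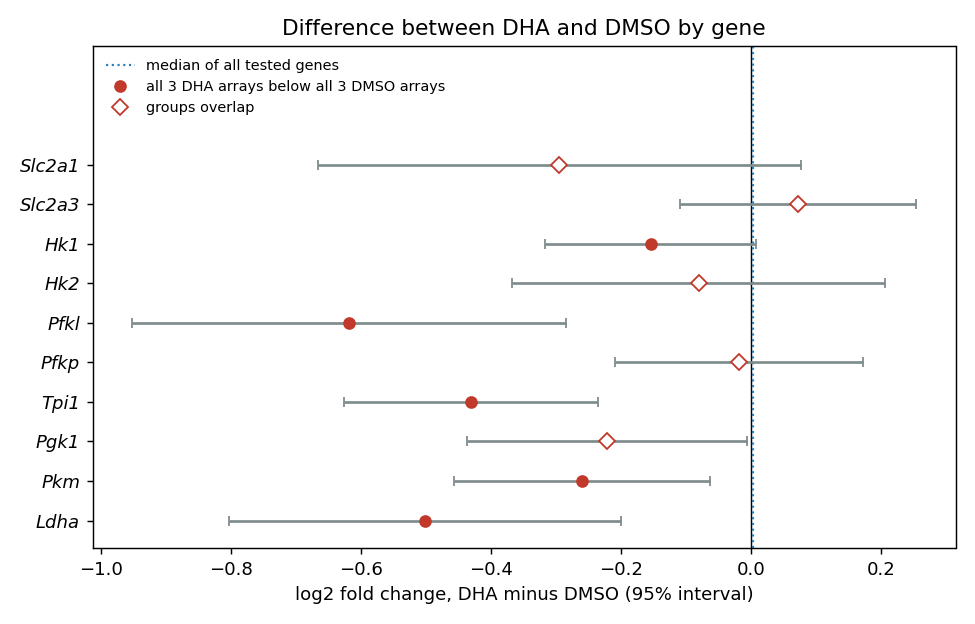
Log2 fold change of DHA over DMSO for each of the 10 genes (x axis, with limma's unadjusted 95% interval), filled where all 3 DHA arrays lay below all 3 DMSO arrays and open where the groups overlapped, and a dotted line at the median of all tested genes (0.0027). Pfkl, Ldha and Tpi1 lie farthest left at -0.62, -0.50 and -0.43, while the intervals of Slc2a1, Slc2a3, Hk1, Hk2 and Pfkp include 0.

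The promoters of the 3 members with the lowest values, and of Pgk1, whose promoter holds a pair of the searched matches, show how the start-proximal sequence differs among them. RefSeq (GRCm38.p6) windows of 250 bases before a transcript start were held for 9 of 10 members, 12 windows in all. They were searched on both strands for ACGTG, the core of many hypoxia response elements, and for CACGTG, the E-box bound by MYC and its relatives, which contains ACGTG. Among 32851 such windows of all genes, 16.6% held ACGTG and 6.02% held CACGTG. Of the 12 member windows 5 held ACGTG, in Slc2a1, Hk2, Pgk1, Pkm and Ldha, and 1 held CACGTG, in Ldha. The sequences are the Ldha window at chr7:46845554-46845803 (+ strand), Pgk1 at chrX:106186850-106187099 (+ strand), Pfkl at chr10:78009808-78010057 (- strand) and Tpi1 at chr6:124814159-124814408 (- strand), each 5′ to 3′ with matches in capitals.
Ldha: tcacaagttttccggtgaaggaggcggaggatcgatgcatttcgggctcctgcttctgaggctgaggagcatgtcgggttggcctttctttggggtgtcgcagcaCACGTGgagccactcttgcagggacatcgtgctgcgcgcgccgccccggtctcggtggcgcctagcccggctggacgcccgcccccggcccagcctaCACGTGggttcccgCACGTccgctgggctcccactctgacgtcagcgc
Pgk1: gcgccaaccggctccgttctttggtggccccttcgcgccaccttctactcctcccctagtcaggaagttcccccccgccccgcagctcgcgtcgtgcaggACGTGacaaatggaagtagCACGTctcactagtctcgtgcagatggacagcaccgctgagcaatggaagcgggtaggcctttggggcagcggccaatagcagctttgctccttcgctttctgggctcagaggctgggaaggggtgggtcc
Pfkl: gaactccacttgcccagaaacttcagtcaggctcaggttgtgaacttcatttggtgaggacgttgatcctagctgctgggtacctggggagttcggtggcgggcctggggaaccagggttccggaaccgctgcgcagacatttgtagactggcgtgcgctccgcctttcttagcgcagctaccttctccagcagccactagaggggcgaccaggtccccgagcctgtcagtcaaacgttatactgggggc
Tpi1: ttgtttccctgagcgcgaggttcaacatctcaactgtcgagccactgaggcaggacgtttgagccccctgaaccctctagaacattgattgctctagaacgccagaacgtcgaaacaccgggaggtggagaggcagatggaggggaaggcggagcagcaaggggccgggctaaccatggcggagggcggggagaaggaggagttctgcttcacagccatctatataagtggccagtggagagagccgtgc
The Ldha window held CACGTG 145 and 48 bases before the start, with a further CACGT, the reverse complement of ACGTG, 34 bases before it. Pgk1 held ACGTG and its complement 150 and 131 bases before the start, whereas the Pfkl and Tpi1 windows held neither motif. Other forms of these elements were not searched for, so a window without a match may still hold one. Matches were thus present in one of the 3 members with the lowest log2 fold changes, Ldha, and not in the windows of Pfkl and Tpi1. A second Ldha window, at a downstream start, held neither motif.

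Slc2a1 encodes GLUT1, the widespread basal glucose transporter. Its log2 intensity was 10.51, 10.05 and 9.88 in DMSO replicates 1 to 3 and 9.93, 9.75 and 9.87 with DHA. DMSO replicate 1 was well above the other 5 arrays, and DHA replicate 1 lay above DMSO replicate 3, so the groups overlapped. The means were 10.14 ± 0.33 and 9.85 ± 0.094 (SD, n = 3 per group), so that the log2 fold change of -0.30 had an SE of 0.16 and a 95% interval of -0.67 to 0.077 (limma adjusted p = 0.509). Without DMSO replicate 1 the value was -0.11. A dimmer Slc2a1 probe set, at 5.72, 5.65 and 5.56 with DMSO and 5.41, 5.50 and 5.37 with DHA, differed by -0.22 with groups that did not overlap.

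Slc2a3 encodes GLUT3, a transporter of high affinity for glucose. It was at 7.44, 7.58 and 7.54 with DMSO and at 7.66, 7.44 and 7.67 with DHA. The lowest array of each group was at about the same level and the groups overlapped. The log2 fold change was 0.072, with an SE of 0.076 and an interval of -0.11 to 0.25 (limma adjusted p = 0.746), 0.146 without DHA replicate 2 and 0.033 without DHA replicate 3. To compare the transporters directly, the Slc2a1 minus Slc2a3 difference was taken within each array. The effect of DHA on it was -0.37 (interval -0.99 to 0.26; exact two-sided permutation p = 0.1, the smallest that 3 against 3 allow, and 0.15 after adjustment over 3 pairs of genes). This difference was -0.15 without DMSO replicate 1 and -0.51 without DMSO replicate 3.

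Hk1 and Hk2 phosphorylate glucose on entry and bind mitochondria, Hk2 being the form often raised in tumours. Hk1 measured 7.20, 7.27 and 7.13 with DMSO and 7.10, 6.93 and 7.11 with DHA. The groups were separate, by only 0.024 between the nearest arrays. Its log2 fold change was -0.15, with an SE of 0.068 and an interval of -0.32 to 0.0072 (limma adjusted p = 0.435), and -0.096 without DHA replicate 2.

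Hk2 measured 7.79, 7.92 and 7.60 with DMSO and 7.75, 7.47 and 7.85 with DHA, so the groups overlapped. The log2 fold change was -0.081, with an SE of 0.12 and an interval of -0.37 to 0.21 (limma adjusted p = 0.826) and turned to 0.029 without DHA replicate 2. The effect of DHA on the Hk1 minus Hk2 difference was -0.074 (interval -0.30 to 0.15; exact permutation p = 0.5, adjusted 0.5), which does not show that the 2 genes responded alike. It was -0.12 without DHA replicate 2, -0.11 without DMSO replicate 2 and -0.023 without either DMSO replicate 3 or DHA replicate 3.

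Pfkl, the liver-type phosphofructokinase subunit, had the lowest log2 fold change of the members. Its arrays read 9.70, 9.43 and 9.23 with DMSO and 8.97, 8.62 and 8.91 with DHA. Every DHA array lay below every DMSO array, with a gap of 0.26. Means were 9.45 ± 0.24 and 8.84 ± 0.19 (SD, n = 3 per group), a log2 fold change of -0.62 (SE 0.14, interval -0.95 to -0.29), which is a change of -34.9% in linear intensity. The limma adjusted p was 0.170, and the gene ranked 305 of 15526 by p, while 5 tested genes had a lower log2 fold change.

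Pfkp, the platelet-type subunit of the same enzyme, had a value near 0. It measured 9.88, 9.66 and 9.67 with DMSO and 9.79, 9.62 and 9.74 with DHA, with the DHA arrays inside or near the DMSO range. Its log2 fold change was -0.019, with an SE of 0.080 and an interval of -0.21 to 0.17 (limma adjusted p = 0.948), and its sign turned without DMSO replicate 1 (0.053) or DHA replicate 2 (0.032). Within arrays, Pfkl minus Pfkp was -0.18, -0.23 and -0.44 with DMSO and -0.82, -0.99 and -0.83 with DHA, so the groups were separate. The effect of DHA on this difference was -0.60 (SE 0.098, interval -0.87 to -0.33; exact permutation p = 0.1, the smallest possible, and 0.15 adjusted over 3 pairs), with -0.68 and -0.54 as its extremes when single arrays were left out.

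Tpi1, which interconverts the 3-carbon sugars made by aldolase, had the smallest p of the members. It read 11.99, 11.83 and 11.76 with DMSO and 11.54, 11.32 and 11.43 with DHA. The groups were separated by 0.22 and had spreads of 0.12 and 0.11 (SD, n = 3 per group). The log2 fold change was -0.43, with an SE of 0.082 and an interval of -0.63 to -0.24 (limma adjusted p = 0.126), a change of -25.8% in linear intensity, and it ranked 161 by p.

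Pgk1, which makes the first ATP of glycolysis, read 12.25, 12.11 and 11.94 with DMSO and 11.98, 11.79 and 11.86 with DHA. DHA replicate 1 lay just above DMSO replicate 3, so the groups overlapped. The log2 fold change was -0.22, with an SE of 0.090 and an interval of -0.44 to -0.0059 (limma adjusted p = 0.404) and -0.15 without DMSO replicate 1.

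Pkm encodes the pyruvate kinase of most tissues, including the M1 and M2 splice forms, which a value per gene does not separate. It read 12.02, 11.73 and 11.80 with DMSO and 11.65, 11.53 and 11.59 with DHA. Groups were separate with a gap of 0.088, and DMSO replicate 1 was the highest array. The log2 fold change was -0.26, with an SE of 0.082 and an interval of -0.46 to -0.064 (limma adjusted p = 0.298). Tpi1, Pgk1 and Pkm lay at the 99.0, 99.4 and 99.1 percentiles of mean level over all genes.

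Ldha, the subunit that favours the making of lactate, read 9.71, 9.20 and 9.36 with DMSO and 8.98, 8.93 and 8.85 with DHA. The 3 DHA arrays were close together and all lay below the DMSO arrays, by at least 0.22. Means were 9.43 ± 0.26 and 8.92 ± 0.065 (SD, n = 3 per group), which gave -0.50 as log2 fold change (SE 0.13, interval -0.80 to -0.20; limma adjusted p = 0.214), a change of -29.4% in linear intensity. DMSO replicate 1 was again the highest array, and without it the value was -0.36.

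**Figure D2:**
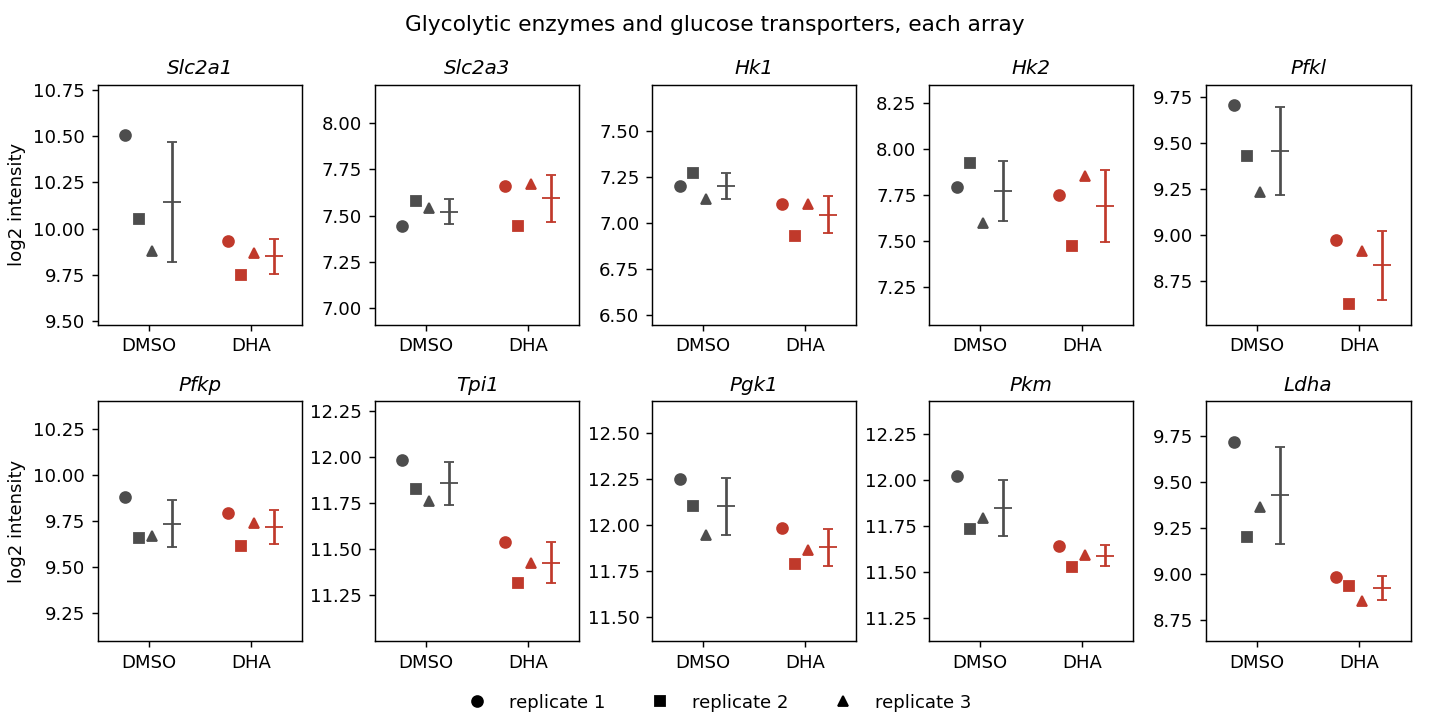
Log2 intensity (y axis, each panel spanning the same range of log2 units) of the 10 genes in each DMSO and DHA array, with symbols for replicates and the group mean ± SD (n = 3) beside them. Pfkl, Tpi1, Pkm, Ldha and Hk1 show separate groups, and DMSO replicate 1 is the highest array in 7 genes.

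The same arrays were often the highest or the lowest. DMSO replicate 1 was the highest of the 6 arrays in 7 of 10 members, and in 17.9% of all tested genes. DHA replicate 2 was the lowest in 9 members, and in 16.1% of all tested genes. Averaged over the members, deviations from the DMSO mean were 0.14, -0.029 and -0.12 in DMSO replicates 1 to 3 and -0.17, -0.37 and -0.22 in the DHA replicates. DHA replicate 2 had the least Ddit3 of the DHA arrays (9.56 against 10.13 and 10.19), while Ldha was lowest in DHA replicate 3, which had the most, and a relation between them was not tested. Without DMSO replicate 1 the median log2 fold change of the members was -0.15 in place of -0.24, and without DHA replicate 2 it was -0.20, with 7 of 10 members lower.

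The titles carry a number code with no explanation in the labels, starting with 2 for DMSO replicates 1 and 2 and DHA replicate 1 and with 4 for the other samples. The extraction protocol mentions 2 h as well as 4 h, and no label ties the codes to a time. Within codes starting with 2, the log2 fold changes were -0.59 for Pfkl, -0.37 for Tpi1, -0.23 for Pkm and -0.47 for Ldha. Within codes starting with 4 they were -0.46, -0.39, -0.23 and -0.47 for the same genes. Slc2a1 was at -0.35 within the former and -0.069 within the latter. Hk2 was at -0.11 and 0.064, Pgk1 at -0.19 and -0.12, and Hk1 at -0.13 and -0.11. In all, 7 members were below 0 within both codes, with Slc2a3, Hk2 and Pfkp the exceptions. With the first digit as a block, limma adjusted p was 0.183 for Pfkl, 0.153 for Tpi1 and 0.283 for Ldha, and the median of the members was -0.18. Codes starting with 2 set 1 DHA array against 2 DMSO arrays and those starting with 4 set 2 against 1, and these within-code values were not tested.

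**Figure D3:**
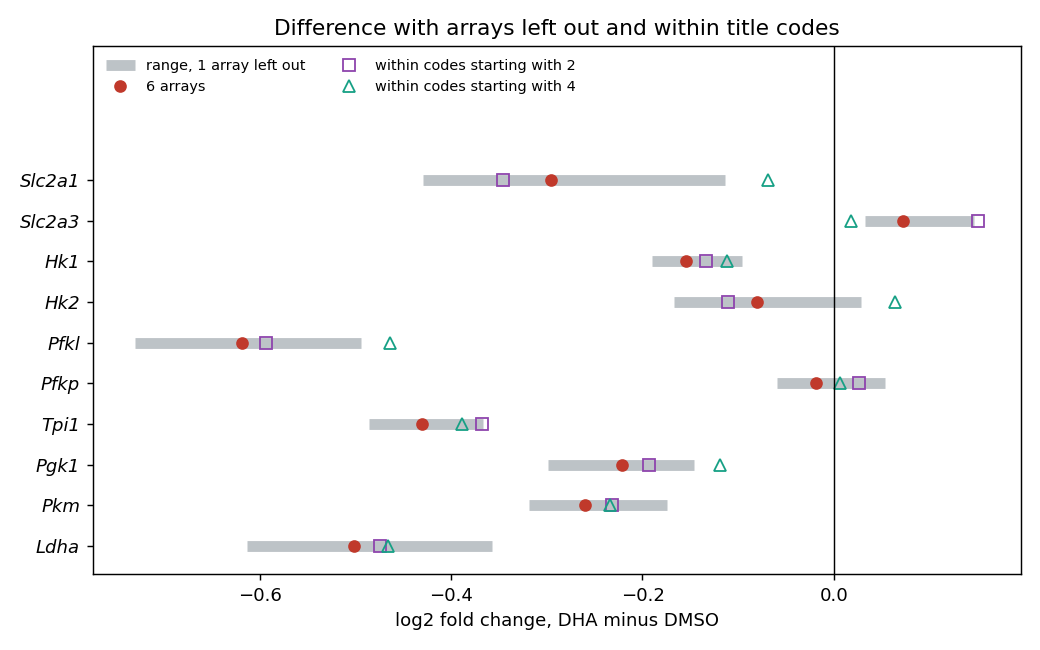
Log2 fold change of DHA over DMSO (x axis) from the 6 arrays (circles), its range on leaving out 1 array (grey bars) and its value within title codes starting with 2 (squares) or 4 (triangles), for each of the 10 genes. Pfkl, Tpi1, Pkm and Ldha stay left of 0 throughout, whereas Hk2 and Pfkp lie on both sides.

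The rest of the pathway was followed in 7 lists of 75 genes, of which 61 were tested. By limma over all genes 0 of these were called, where 0.0902% of all genes were called. At an unadjusted p under 0.05, 3 were higher and 10 lower (5.94% and 6.08% of all genes). Of 12 other glycolytic enzymes, 7 were lower, and their median log2 fold change was -0.021 (-0.049 without DMSO replicate 2, -0.051 without DMSO replicate 3, -0.033 without DHA replicate 1, -0.014 without DHA replicate 3). All 3 DHA arrays lay below all 3 DMSO arrays in 4 of them (8.19% of all genes) and above in 1 (7.64%). The list holds dim genes, named for their level, with DMSO means of 4.93 for Pgam2, 4.91 for Eno2, 5.34 for Hk3, 5.28 for Hkdc1 and 5.35 for Pklr. Pgam1, the phosphoglycerate mutase that follows Pgk1, read 10.40, 10.54 and 10.13 with DMSO and 10.01, 9.93 and 9.86 with DHA, which gave -0.42 as log2 fold change (SE 0.11; limma adjusted p = 0.208). Pfkm, the muscle-type phosphofructokinase subunit, had -0.23 (adjusted p = 0.241) and the ADP-dependent glucokinase Adpgk 0.17 (adjusted p = 0.399). Gapdh, chosen after its values were seen, sits between Tpi1 and Pgk1 in the pathway and had -0.039 (SE 0.042; adjusted p = 0.748), at 12.86 and 12.83 in the DMSO and DHA means. The aldolase gene Aldoc, also chosen after its values were seen, had -0.47 (SE 0.20; adjusted p = 0.416), with DMSO replicate 1 at 8.94 and the other DMSO arrays at 8.17 and 8.20. Gpi1, Aldoa and Eno1 had no probe set of their own in the annotation and were not analysed here.

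Enzymes and carriers at the pyruvate and lactate branch had a median log2 fold change of -0.090, with 12 of 15 lower. At an unadjusted p under 0.05, 4 were lower (6.08% of all genes) and 0 higher (5.94%). The pyruvate dehydrogenase kinases, which hold pyruvate out of the mitochondrial oxidation route, included Pdk3 at -0.32 (SE 0.063; limma adjusted p = 0.136) and Pdk1 at -0.43 (SE 0.097; adjusted p = 0.172). Pdk1 read 9.10, 8.87 and 8.77 with DMSO and 8.59, 8.37 and 8.50 with DHA, with no overlap. Bsg, the chaperone of the lactate transporters, had -0.21 (SE 0.059; adjusted p = 0.251). Slc16a3, which encodes the lactate exporter MCT4 and was chosen after its values were seen, had -0.47 (SE 0.28; adjusted p = 0.554), with DMSO replicate 1 at 7.003 and the other 5 arrays at 5.74 to 6.03.

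The list of other facilitative hexose transporters, which also holds the myo-inositol carrier gene Slc2a13 (0.063), gave a median of 0.027. The largest value was 0.12 for Slc2a2 (limma adjusted p = 0.588). At an unadjusted p under 0.05, 0 of 8 were higher (5.94% of all genes) and 0 lower (6.08%). In so short a list this count does not show that they were unchanged. Some were dim, with DMSO means of 4.71 for Slc2a2, 4.83 for Slc2a4 and 4.79 for Slc2a7, near the filter at 4.52. Slc2a6, Slc2a8 and Slc2a9 were brighter, at 7.25, 6.73 and 7.78. Among the 4 genes that set fructose 2,6-bisphosphate, the activator of phosphofructokinase, the median was 0.0024, and its sign turned without DMSO replicate 3, DHA replicate 2 or DHA replicate 3. Tigar, a phosphatase that lowers this activator, had -0.21 (SE 0.076; limma adjusted p = 0.343), and the kinase-phosphatase genes Pfkfb2 and Pfkfb3 had 0.13 and 0.040. In the pentose phosphate pathway 6 of 6 genes were lower, with a median of -0.075 (-0.12 without DMSO replicate 2, -0.13 without DHA replicate 3), and Pgd, its second dehydrogenase, had -0.21 (SE 0.064; limma adjusted p = 0.279). Rpe and Taldo1, of its later steps, had -0.078 and -0.13.

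The gluconeogenic list ran both ways, with a median of -0.0049, which was 0.0065 without DMSO replicate 2. Pck2, the mitochondrial form of phosphoenolpyruvate carboxykinase, read 10.24, 10.14 and 9.98 with DMSO and 10.57, 10.41 and 10.57 with DHA, so every DHA array was higher. Its log2 fold change was 0.40 (SE 0.082; limma adjusted p = 0.146), opposite in sign to that of Pkm and Ldha, while Pcx, pyruvate carboxylase, had -0.19 (adjusted p = 0.336). Among 9 genes of transcriptional control the median was 0.015. Txnip, which restrains glucose uptake, had 0.18 (SE 0.069; limma adjusted p = 0.363), Mlxip, a glucose-sensing factor, -0.18 (adjusted p = 0.407) and Myc 0.16 (SE 0.084; adjusted p = 0.515). Hif1a, chosen after its values were seen, had 0.044 (SE 0.051; adjusted p = 0.769), and its protein was not measured.

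**Figure D4:**
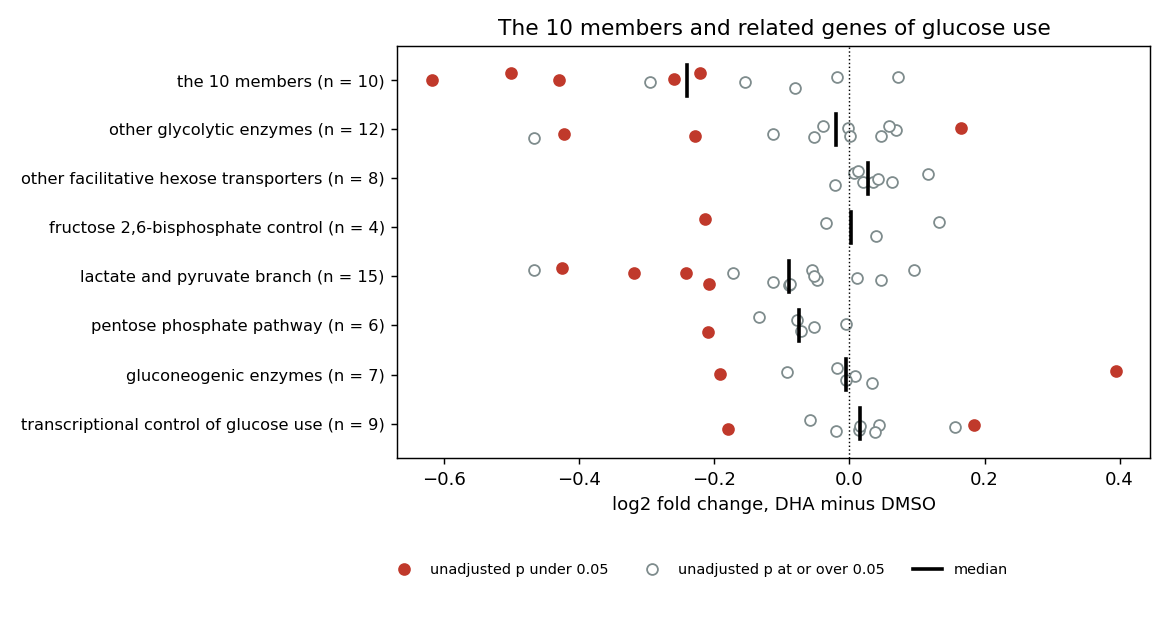
Log2 fold change of DHA over DMSO (x axis) for the 10 members and each tested gene of the 7 related lists, red where the unadjusted limma p was under 0.05, with a bar at each median. The members have a median of -0.24, the other glycolytic enzymes, several of them dim, -0.021 and the pyruvate and lactate branch -0.090. The red point farthest to the right is Pck2 (0.40).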

How the data were processed

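RNA was measured on 3 DMSO and 3 DHA Affymetrix arrays. The values the authors deposited are log2 intensities, 1 per probe set and array; RMA and Partek version 6.6 are named per the submitters' processing notes, without settings. Such summaries tend to understate differences of dim genes. Of 41345 probe sets, the platform annotation gave 1 gene symbol for 23521, several for 1814 and did not name 16010; symbols were updated through Entrez identifiers to RefSeq (GRCm38.p6), which matched 23328. Of 22180 genes, those under the 30th percentile of the mean (4.52) were left out, which left 15526.

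DHA was compared with DMSO by limma version 3.58.1 in R version 4.3.3 (two-sided, residual degrees of freedom 4, prior 2.77). A gene was called changed where its p, after Benjamini-Hochberg adjustment over all genes, was at or under 0.05. In simulated data for this comparison, with 15526 genes and 200 changed, 89.3% of the genes given a log2 change of 0.5 were recovered. The noise was normal, independent between genes and scaled by limma's already moderated SEs, so this share can overstate recovery in the arrays. The 200 genes were split over log2 changes of 0.5, 1 and 2, with 99.3% and 100% of the larger ones recovered. Far more genes were thus called than the 14 in the arrays. The adjusted threshold is easier to pass where many genes are called, which can also overstate recovery. Ldha, at -0.50, was not called there (limma adjusted p = 0.214), and the share gives no ground to exclude changes of this size. Gene pairs were compared by exact permutation. The SEs and 95% intervals of pair differences are from an ordinary t with 4 degrees of freedom on the pooled SD, not from limma. No p was adjusted over a list alone. Members and lists were chosen with earlier results of these data known. All 10 members were named, and of each related list any called gene and up to 3 with the smallest p. Alternatives concerned arrays left out, filter, scaling, probe set choice, moderation, array weights and title codes. Many glycolytic genes have processed pseudogenes, and probe sequences were not analysed here. Scan dates were not analysed here, and the number of arrays limits the precision.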

Additional observations from a re-analysis of the deposited data

How the results depend on the processing

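None of the 10 members was called under any of the 17 alternatives with a test, and the lowest adjusted p reached was 0.0682 for Pfkl, with the shared title code as a term, and 0.0789 for Tpi1, with the 50th percentile filter. Hk2 and Pfkp changed sign in some of 19 alternatives, and the other 8 members kept theirs in each. Leaving out single arrays moved Hk2 between -0.17 and 0.029, and it was 0.064 within title codes starting with 4. The same moved Pfkp between -0.059 and 0.053, which was 0.017 with the first digit of the code as a block and 0.027 and 0.0066 within codes starting with 2 and 4. The median of the members lay between -0.29 and -0.15 with single arrays left out and was -0.12 within codes starting with 4. With single arrays left out, medians of the related lists lay between -0.051 and -0.014 for other glycolytic enzymes, -0.13 and -0.074 for the lactate and pyruvate branch, -0.13 and -0.062 for pentose phosphate genes, -0.018 and 0.023 for fructose 2,6-bisphosphate genes, -0.022 and 0.0065 for gluconeogenic genes, 0.015 and 0.041 for other hexose transporters and 0.0022 and 0.038 for transcriptional control. Within codes starting with 4, that of other glycolytic enzymes was -0.084. No paired analysis was possible because DMSO and DHA shared only 1 title code (DMSO replicate 3, DHA replicate 2), while the numbers of the replicates follow accession order. The number of genes called over all genes, 14, was 0 to 23 with single arrays left out, 52 after median centring, 63 after quantile normalization, 5 with no filter, 62 with the filter at the 50th percentile, 62 with trend and robust moderation, 41 with the shared title code as a term and 0 without both samples that share it, where 1564 genes had an unadjusted p under 0.05. Some of these settings use fewer arrays or test fewer genes by construction; for the others the cause was not tested.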
